A study of Mus musculus with 9 samples.

Results

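Maff and Hmox1 are 2 genes, of 5608 listed in a table of liver RNA-seq values, that were followed here through the 9 libraries of a dietary restriction experiment. They were chosen by name on values already seen in these libraries: Hmox1 and Maff differed between fasting-mimicking diet and intermittent fasting, and Maff moved in opposite directions in both diets vs the fed group. Their levels below are therefore a description and carry no p-value. Livers came from wild-type C57BL/6 J mice, 3 per group, whose age and sex were not given in the sources used here. The fed group (FED) had free access to standard diet. Intermittently fasted mice (IF) went without food for 24 h on 2 occasions, the second on the day before sacrifice, with refeeding in between. FMD-fed mice (FMD) received a fasting-mimicking diet over the last 3 days, at 50% of their usual calorie intake on the first day and 10% on the following days. All mice were sacrificed on day 5, the IF and FMD mice directly after restriction, and the 3 libraries of a group came from different mice.

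Maff encodes a small Maf protein, a basic leucine zipper (bZIP) factor that binds DNA but lacks a transactivation domain of its own. Small Maf proteins pair with cap'n'collar (CNC) factors such as NRF2 on antioxidant response elements and switch on detoxification genes, whereas pairs with BACH factors or of small Mafs with each other keep such genes silent. Hmox1 encodes heme oxygenase-1, the inducible enzyme that splits heme into biliverdin, iron and carbon monoxide. It is a textbook target of this NRF2 and BACH1 switch, and also responds to heme, heat and other stress. In liver both genes are known as low at rest and quickly induced.

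Maff lies on chromosome 15 (NCBI gene 17133) and Hmox1 on chromosome 8 (NCBI gene 15368). RefSeq promoter windows were at hand for Maff, with 3 start sites, and not for Hmox1. The 250 bases before 2 of the Maff starts are shown because they hold elements of the stress pathways followed below. The third overlapped an exon and is not printed. Capitals mark the motifs found. The coordinates are of build GRCm38.p6, plus strand, chr15:79346371-79346620 for the first and chr15:79347270-79347519 for the second.
Maff start 1: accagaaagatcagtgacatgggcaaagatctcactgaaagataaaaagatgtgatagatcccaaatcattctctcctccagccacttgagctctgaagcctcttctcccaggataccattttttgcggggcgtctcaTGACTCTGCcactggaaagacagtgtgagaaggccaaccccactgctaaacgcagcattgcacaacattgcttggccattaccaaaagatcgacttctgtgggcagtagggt
Maff start 2: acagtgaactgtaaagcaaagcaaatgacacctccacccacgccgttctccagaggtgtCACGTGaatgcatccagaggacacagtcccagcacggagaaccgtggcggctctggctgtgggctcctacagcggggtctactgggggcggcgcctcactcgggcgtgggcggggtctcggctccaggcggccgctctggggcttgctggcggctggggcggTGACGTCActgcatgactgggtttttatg
The capitals before start 1 are an antioxidant response element core (TGACNNNGC, the site of small Maf and CNC pairs), at -112 to -104 from the start. Before start 2 the capitals are an E-box (CACGTG), at -191 to -186 from the start, and a cyclic AMP response element (TGACGTCA, a site of ATF and CREB factors), at -29 to -22. The E-box contains the hypoxia response element core ACGTG on both strands. Among the 32851 windows of this length in the RefSeq table, 10.2% held the antioxidant core, 1.55% the cyclic AMP element, 6.02% the E-box and 16.6% the hypoxia core on either strand. The AP-1 site TGACTCA (4.46% of windows), the heat shock pair GAANNTTC (6.69%) and TATAAA (12.4%) were not among the letters of the Maff windows. These matches describe the sequence and say nothing about which factor was bound.

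Values were TPM, transcript abundances scaled for transcript length and library total. Over all genes tested, FMD replicate 1 stood apart from the other FMD mice, at distances of 34.8 and 42.0 from replicates 2 and 4 on log2(TPM + 1), against 25.2 between those. Maff was barely detected in the livers of intermittently fasted mice, low in fed mice and clearly expressed after FMD. In fed mice it was at 1.55, 1.40 and 2.37 TPM in replicates 1, 2 and 3. In IF mice it was at 0.76, 0.34 and 0.52 TPM. In FMD-fed mice it was at 25.79, 17.81 and 11.93 TPM in replicates 1, 2 and 4. Every IF library lay below every fed library, and every FMD library lay above both groups. The group means were 1.77 ± 0.522 TPM in fed mice, 0.540 ± 0.211 TPM in IF mice and 18.5 ± 6.96 TPM in FMD (SD, n = 3 each). The FMD mean was thus 10.4 times the fed mean and 34.3 times the IF mean, and the fed mean was 3.28 times the IF mean. Since the IF values were all under 1 TPM, folds against them rest on very little signal.

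Hmox1 followed the same order at a higher level and with smaller steps. It was at 13.73, 12.80 and 14.27 TPM in the fed mice. In the IF mice it was at 9.65, 9.08 and 10.41 TPM. In the FMD-fed mice it was at 35.88, 30.97 and 21.82 TPM. Again no 2 groups overlapped: IF was lowest, FED intermediate and FMD highest. The means were 13.6 ± 0.744 TPM in fed mice, 9.71 ± 0.667 TPM in IF mice and 29.6 ± 7.14 TPM in FMD (SD, n = 3 each). The FMD mean was 2.17 times the fed mean and 3.04 times the IF mean, while the fed mean was 1.40 times the IF mean.

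**Figure D1:**
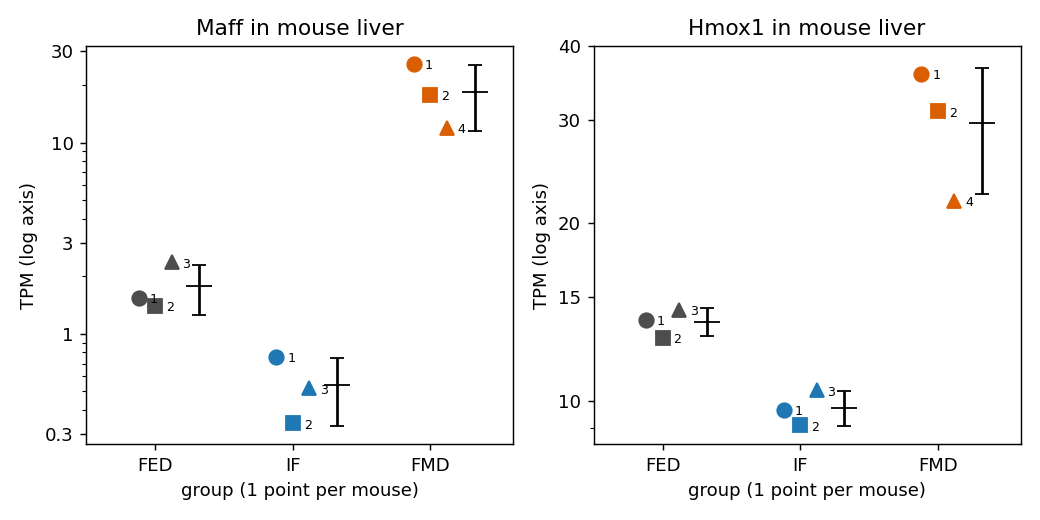
TPM of Maff (left) and Hmox1 (right) in each library, on log axes of different range, with the replicate number beside each point and the group mean with its SD in black. Both genes stepped from IF (lowest) over FED to FMD (highest) without overlap. On these unscaled values the FMD mice ranked replicate 1, then 2, then 4 in both.

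Changes were fitted with limma on log2(TPM + 1), a scale that understates the change of low genes such as Maff. On this scale Maff fell by 0.84 in IF vs FED, rose by 2.77 in FMD vs FED and was 3.61 higher in FMD vs IF (SE 0.24 for each). For Hmox1 the log2 fold changes were -0.45, 1.04 and 1.49 in the same comparisons (SE 0.16 for each). FMD vs FED and IF vs FED share the fed libraries, so these values are not independent. Of the 4665 genes with a mean of at least 1 TPM, Maff had the highest log2 fold change in FMD vs IF and the 17th highest in FMD vs FED, and it was the 55th from the bottom in IF vs FED. Hmox1 was 33rd from the top in FMD vs IF, 327th from the top in FMD vs FED and 149th from the bottom in IF vs FED. Both genes were past the filter on low values.

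The listed genes as a whole were shifted upwards in both diets, with a median log2 fold change of 0.24 in IF vs FED, 0.48 in FMD vs FED and 0.24 in FMD vs IF. The step down of both genes in IF thus ran against the median gene, and part of the step up in FMD was shared with it. After each library was scaled to a common median (scaled libraries), Maff stood at 3.35 in FMD vs IF, 2.33 in FMD vs FED and -1.02 in IF vs FED on the log2 scale. For Hmox1 the values were 1.22, 0.51 and -0.71, so the step below the fed group was then larger than the step above it. Neither gene changed direction. On the raw TPM scale the Maff mean exceeded that of 26.3% of the listed genes in FED, 13.3% in IF and 65.3% in FMD, and the Hmox1 mean that of 67.9%, 56.0% and 74.2%.

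A gene was called differentially expressed at an adjusted p under 0.05 (limma, Benjamini-Hochberg over all 4665 genes) and a fold change over 1.5 in size. In IF vs FED this held for 10.3% of genes in the upward and 1.59% in the downward direction, in FMD vs FED for 35.5% and 1.59%, and in FMD vs IF for 4.67% and 0.472%. In scaled libraries the shares were 3.69% and 3.45%, 5.49% and 5.64%, and 1.11% in each direction. All genes here means the genes tested, an incomplete part of the transcriptome. The study itself reported somewhat more genes down than up in each diet vs the fed group. The unscaled upward shares therefore belong to the genes tested and need not hold for the whole liver transcriptome. Maff was past these limits in all 3 comparisons and Hmox1 in both that involve FMD, which is how the genes came to be chosen and is not a result. Maff in IF vs FED was no longer past them when any 1 FED or IF library was left out, at -0.94 to -0.69, and Hmox1 in FMD vs FED was not past them in scaled libraries. Without FMD replicate 1 the FMD vs FED values were 2.51 for Maff and 0.89 for Hmox1, and the FMD vs IF values 3.35 and 1.34. With that library left out of the scaled fit, the FMD vs FED values were 2.18 for Maff and 0.48 for Hmox1, and the FMD vs IF values 3.20 and 1.19.

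The combination of a step down in IF and a step up in FMD was shared by few genes. Every IF library lay below every fed library and every fed library below every FMD library at 37 of the 4665 genes, 0.793%. In scaled libraries this order held at 32 genes, 0.686%, and 6 genes had it both ways: Maff, Hmox1, Tubb6, Pvr, Tpm4 and Chordc1. These other genes were named after their values were seen. Among the 37, Maff had the largest and Hmox1 the 7th largest difference between FMD and IF. The order was taken from the values on which both genes were chosen, and no other order was counted. These shares and ranks are therefore a description and not a result about the 2 genes. In IF vs FED 81.1% of all genes were above 0 before scaling and 49.8% after.

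The spread between mice also differed between the 2 genes. Hmox1 was tight in fed and IF mice, with coefficients of variation of 5.47% and 6.87%, and widened to 24.1% in FMD-fed mice. Maff varied by 29.4%, 39.0% and 37.6%. Within the FMD group both genes fell in the order replicate 1, replicate 2, replicate 4, and the highest mouse had 2.16 times the Maff and 1.64 times the Hmox1 level of the lowest. The 3 mice cannot show whether the 2 genes go together from mouse to mouse.

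The 2 genes also moved by different amounts, which changed their ratio. Hmox1 TPM divided by Maff TPM was 8.86, 9.14 and 6.02 in the fed mice. It was 12.7, 26.7 and 20.02 in the IF mice. In the FMD-fed mice it was 1.39, 1.74 and 1.83. The ratio was therefore highest in IF and lowest in FMD without overlap, at means of 8.01 ± 1.73, 19.8 ± 7.01 and 1.65 ± 0.231 (SD, n = 3 each; FED, IF, FMD). The IF ratios divide by Maff values of 0.34 to 0.76 TPM, so their size and spread rest on very little signal. The TPM of Hmox1 still exceeded that of Maff in each library.

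Other genes were ranked by how closely their profile over the 9 libraries matched each gene, as the root mean square difference of log2(TPM + 1) after centring on the fed mean. Closest to Maff were Rgs16 (0.63), Tubb6 (0.79), Cdc42ep5 (0.86), Pvr (0.87) and Klf6 (0.88). Rgs16, which encodes a regulator of G protein signalling, was at 1.96 to 4.09 TPM in fed mice, 1.76 to 4.34 TPM in IF mice and 23.5 to 45.5 TPM in FMD mice. It thus shared the FMD rise of Maff but not the step down in IF, where the fed and IF ranges overlapped. Klf6, a zinc finger factor of the early response to injury, had the same overlap, at 1.40 to 2.28 TPM in FED and 1.69 to 2.51 TPM in IF. Pvr, a cell surface receptor, kept the full order of Maff, at 3.94 to 4.34 TPM in fed mice, 2.25 to 2.79 TPM in IF mice and 6.62 to 24.25 TPM in FMD. The same 5 genes were closest in scaled libraries.

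Hmox1 had much closer neighbours: Chordc1 (0.099), Tra2a (0.21), Dynll1 (0.23), Eif2ak3 (0.26) and Tinagl1 (0.26). Chordc1, which encodes an HSP90 co-chaperone of the heat shock response, was at 15.84, 15.15 and 16.45 TPM in FED mice. In IF mice it was at 13.33, 10.57 and 12.05 TPM, and in FMD mice at 46.85, 34.88 and 23.92 TPM. Its libraries therefore separated in the same order as those of Hmox1, on unscaled values down to the ranking of the FMD mice. Dynll1, a dynein light chain, and Eif2ak3, the endoplasmic reticulum stress kinase PERK, were highest in FMD replicate 1, at 27.8 and 17.4 TPM against at most 14.2 and 8.21 TPM in the other FMD mice. In scaled libraries the first 3 neighbours were the same and Spred2 and Etv5 took the place of the others. Maff and Hmox1 differed by 1.04 on this measure, with the larger moves in Maff. Hmox1 was the 32nd closest gene to Maff, and Maff the 4492nd closest to Hmox1.

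**Figure D2:**
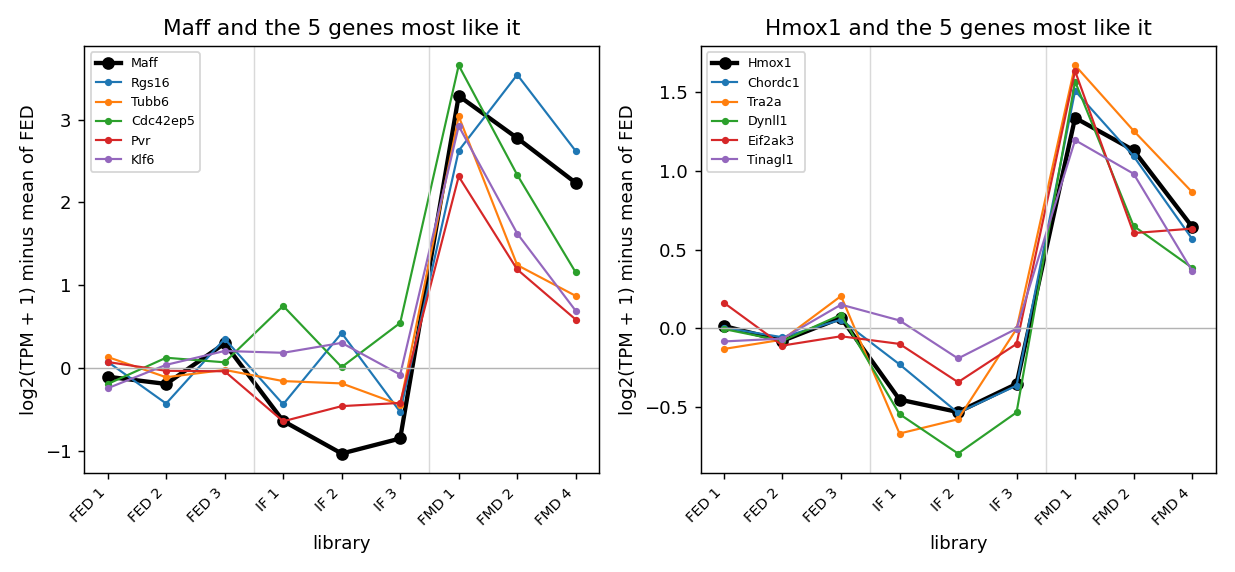
Log2(TPM + 1) minus the mean of the fed libraries (vertical axis) in each of the 9 libraries (horizontal axis) for Maff (left, black) and Hmox1 (right, black) and the 5 genes closest to each. Chordc1 ran along Hmox1 in nearly every library, whereas Rgs16 and Klf6 followed Maff in FMD but not in IF.

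Of the partners and regulators of small Maf proteins, 4 of 12 listed genes were in the table, Maff included. Mafg, Mafk, Nfe2l2, which encodes NRF2, and Bach1 were not analysed here. Nfe2l1, a CNC factor that also pairs with small Mafs, was at 27.88, 37.16 and 32.67 TPM in fed mice, 43.57, 42.82 and 49.82 TPM in IF mice and 60.48, 77.27 and 60.37 TPM in FMD mice. Unlike Maff it was lowest in the fed group. It rose in FMD vs FED by 1.0 on the log2 scale (SE 0.14, limma adjusted p = 0.000476), and by 0.46 without a call in scaled libraries. Keap1, the adaptor that sends NRF2 to degradation, rose in FMD vs FED by 0.69 (adjusted p = 0.000694), a call also lost on scaling, at 0.16. Rbx1, the ring subunit of the KEAP1 ubiquitin ligase, was at 25.9 to 32.0 TPM in fed mice, 30.6 to 34.6 TPM in IF mice and 34.7 to 43.6 TPM in FMD mice and was not called in any comparison. In FMD vs IF, where Maff differed most, none of the 3 other genes passed both limits. Over all genes 4.67% passed them upwards and 0.472% downwards.

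Of 43 listed genes of heme and iron handling, 19 were in the table, Hmox1 included, and the 18 others were tested. In IF vs FED 3 were called higher and 0 lower, in FMD vs FED 5 higher and 0 lower, and in FMD vs IF 0 either way. In scaled libraries these counts were 2 and 0, 2 and 2, and 0. The medians of the 18 genes were 0.19, 0.28 and 0.14 on the log2 scale, each below that of all genes, and negative after scaling. Over all genes the shares called higher were 10.3% in IF vs FED, 35.5% in FMD vs FED and 4.67% in FMD vs IF. The 0 of 18 genes in FMD vs IF is near that share.

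Alas1 and Cpox, genes of heme synthesis, rose in IF, where Hmox1 was low. Alas1, the rate-limiting enzyme of heme synthesis, was at 28.21, 122.06 and 56.56 TPM in FED mice and at 377.65, 333.32 and 398.38 TPM in IF mice. In FMD mice it was at 222.92, 248.39 and 516.73 TPM. It was therefore above every fed library after both diets, and FMD and IF overlapped. Alas1 rose by 2.64 in IF vs FED (SE 0.45, adjusted p = 0.00290) and by 2.38 in FMD vs FED (adjusted p = 0.00181). Cpox, a later enzyme of the pathway, rose by 1.22 and 1.09 (adjusted p = 0.000849 and 0.000627), the second without a call after scaling. Ppox, another enzyme of the pathway, was not called, with means of 12.5 TPM in FED, 10.8 TPM in IF and 11.6 TPM in FMD, but was called lower in FMD vs FED in scaled libraries, at -0.62. In IF, Hmox1 was below and Alas1 above the fed group in all 3 mice, whereas in FMD both were above it.

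Among genes that act beside or after heme oxygenase-1, Hmox2, the constitutive isoenzyme, was at 38.2 to 45.4 TPM in fed mice, 54.7 to 56.9 TPM in IF mice and 59.4 to 77.5 TPM in FMD mice. It did not step down in IF as Hmox1 did. It rose by 0.61 in FMD vs FED (adjusted p = 0.00305), but by 0.06 without a call after scaling. Blvrb, a biliverdin reductase, rose by 0.65 in IF vs FED (adjusted p = 0.0171) and by 1.16 in FMD vs FED (adjusted p = 0.000422), and the IF call was lost on scaling. Blvra, the main biliverdin reductase of adults, had the order of Hmox1 in its means and every IF library below every fed library, but FED and FMD overlapped, at 11.7 to 13.6 TPM in fed mice, 9.27 to 11.4 TPM in IF mice and 11.7 to 16.5 TPM in FMD mice, and was not called. Its FMD vs FED value of 0.08 turned to -0.43 in scaled libraries, where every FMD library lay below every fed library. Hpx, the plasma heme scavenger made by hepatocytes, was at 3205 to 7485 TPM over all libraries, and no 2 groups were apart. It was not called, but was called lower in FMD vs FED in scaled libraries, at -1.0, and on unscaled values without FED replicate 2 or without FMD replicate 1. Fth1 and Ftl1, the ferritin subunits that store the iron released from heme, were not analysed here.

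**Figure D3:**
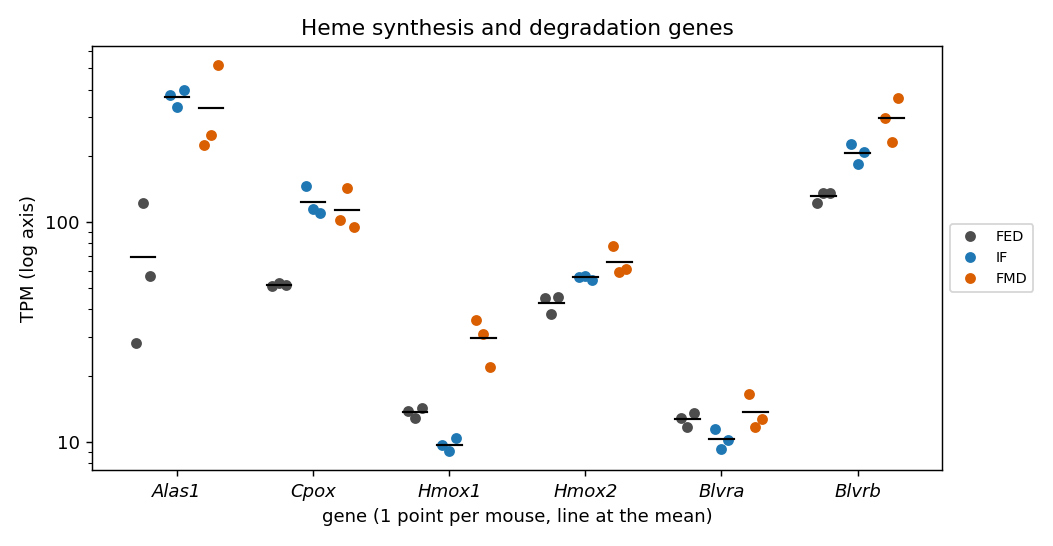
TPM of 2 heme synthesis genes (Alas1, Cpox), both heme oxygenases (Hmox1, Hmox2) and both biliverdin reductases (Blvra, Blvrb) in each mouse, on a log axis, with a line at each group mean. Hmox1 and Blvra have their lowest mean in IF, while Alas1, Cpox, Hmox2 and Blvrb are lowest in the fed group.

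NRF2 target and antioxidant genes, the class in which Hmox1 is usually counted, were represented by 24 other genes tested. Of the 52 genes listed for this class, 25 were in the table. In IF vs FED 4 were called higher and 0 lower, in FMD vs FED 9 higher and 1 lower, and in FMD vs IF 2 higher and 0 lower. The shares of all genes called higher were 10.3%, 35.5% and 4.67%, so the 9 of 24 in FMD vs FED is close to that of all genes. In scaled libraries the counts were 2 and 1, 4 and 1, and 1 and 1. The list medians of 0.25, 0.42 and 0.30 were close to those of all genes, 0.24, 0.48 and 0.24. The list median was thus above 0 in IF vs FED, where Hmox1 and Maff were below it, and at -0.03 in scaled libraries.

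Its members differed when set beside Hmox1. Glrx, which encodes glutaredoxin, and Cbr1, a carbonyl reductase, rose in both diets, by 1.47 and 1.59 in IF vs FED (adjusted p = 0.000156 and 0.00183) and by 1.79 and 2.10 in FMD vs FED (adjusted p = 1.73e-05 and 0.000173). All 4 calls held after scaling, and neither gene was called in FMD vs IF. Gpx4 and Ephx1, a lipid peroxide reductase and an epoxide hydrolase, also rose in both diets, with adjusted p between 0.000398 and 0.0151, but were called in neither after scaling. Sqstm1, the autophagy receptor p62, came closer to Hmox1: it was at 320 to 332 TPM in fed mice, 377 to 406 TPM in IF mice and 584 to 1137 TPM in FMD mice. It rose in FMD vs FED by 1.21 (adjusted p = 0.00115) and in FMD vs IF by 0.93 (adjusted p = 0.0315), the latter lost without any 1 of the 6 FED and IF libraries.

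Srxn1, the sulfiredoxin gene, had the largest rise of the list in FMD vs FED, by 2.42 (SE 0.47, adjusted p = 0.00210). It was at 15.15, 15.40 and 18.96 TPM in fed mice, 38.66, 29.46 and 25.25 TPM in IF mice and 251.27, 64.67 and 47.69 TPM in FMD mice. Its FMD mice ranked as they did for Maff and, before scaling, for Hmox1. Unlike both, it was higher in IF than in FED libraries, and FMD replicate 1 stood far above the rest. Txnrd1, thioredoxin reductase, rose by 0.81 in FMD vs FED (adjusted p = 0.00458), which scaling ended. Txn1, its substrate thioredoxin, had the IF, FED, FMD order without overlap and was called in FMD vs IF at 0.59 (adjusted p = 0.0487), a call lost on scaling and without FMD replicate 1 or any 1 FED or IF library. With G6pdx, Pgd and Taldo1, enzymes of the pentose phosphate pathway, it was 1 of 4 genes of the list whose mean was lowest in IF, as for Hmox1. In IF vs FED these 3 were at -0.41, -0.78 and -0.28 with every IF library below every fed library, none of them called, and Pgd was called lower in scaled libraries, at -1.05. Gclc and Gclm, the subunits of the enzyme that starts glutathione synthesis, were called in no comparison, with log2 fold changes of 0.07 to 0.32. In scaled libraries these were -0.30 to -0.09, again without a call. Slc7a11, the cystine transporter, was at 0.32 TPM in FMD replicate 1 and at most 0.01 TPM elsewhere and was not tested, and Nqo1 was not analysed here. Hmox1 was thus not accompanied by every NRF2 target measured.

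**Figure D4:**
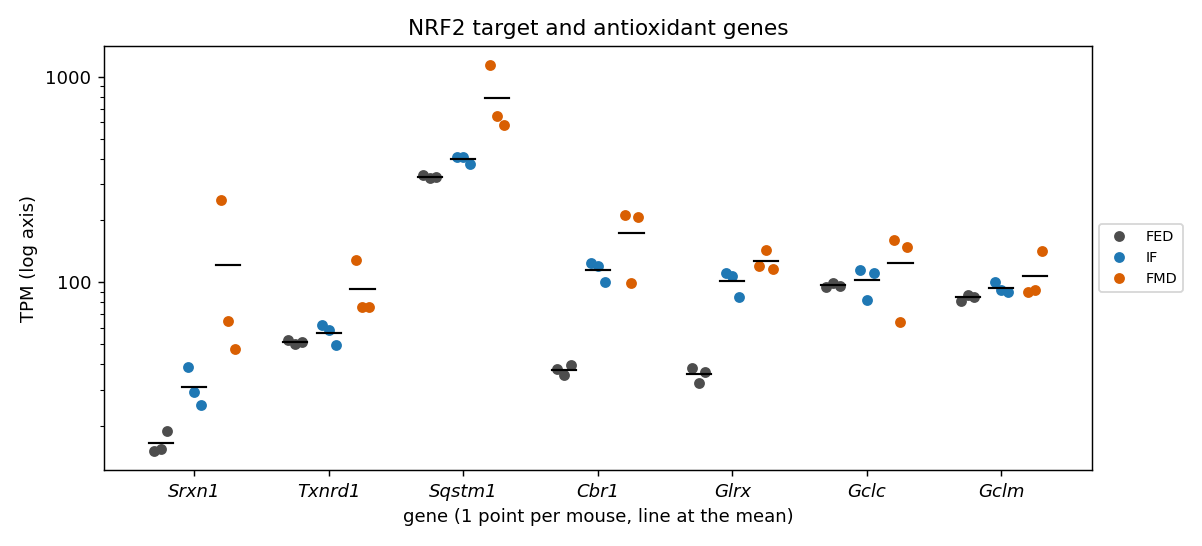
TPM of 7 NRF2 target and antioxidant genes in each mouse, on a log axis, with a line at each group mean. On these unscaled values all 7 means are lowest in FED, whereas those of Hmox1, Maff and 4 other tested genes of the list are lowest in IF. Srxn1, Txnrd1 and Sqstm1 are highest in 1 FMD mouse, replicate 1.

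Maff shares its DNA-binding fold with other bZIP factors, AP-1, ATF and C/EBP factors among them. Of 34 listed, 14 were in the table and were tested. In FMD vs IF 4 were called higher and 0 lower, in FMD vs FED 7 and 0, and in IF vs FED 1 and 0, while scaled libraries gave 2, 2 and 0 higher and 0 lower. Of all genes, 4.67%, 35.5% and 10.3% were called higher in these comparisons before scaling. Cebpb, a factor of the acute phase and of fasting metabolism, was at 60.9 to 77.4 TPM in fed mice, 87.3 to 96.1 TPM in IF mice and 179 to 213 TPM in FMD mice. It rose in FMD vs IF by 1.13 (SE 0.13, adjusted p = 0.00195) and in FMD vs FED by 1.57 (adjusted p = 2.13e-05), in scaled libraries as well. Fosl2, an AP-1 subunit, rose in FMD vs IF by 0.83 (adjusted p = 0.0240). Cebpg rose by 1.02 (adjusted p = 0.0304) and Jdp2 by 0.97 (adjusted p = 0.0369). Each of these calls was lost when any 1 IF library was left out. After scaling Fosl2 was still called, at 0.61, but Cebpg and Jdp2 were not, at 0.75 and 0.76. Jdp2 kept its call in only 1 of 9 fits with 1 library left out. Mean Jdp2 was 0.85 (FED), 0.90 (IF) and 2.87 (FMD) TPM, so only its FMD level took it past the 1 TPM filter. With a filter of 5 TPM, 2 of 10 genes were called higher in FMD vs IF. Fosl1, chosen after its values were seen, was listed at 0 in all FED and IF libraries and at 11.36, 1.46 and 0.09 TPM in FMD mice, the ranking of mice seen for Maff. None of the 14 genes was called lower in IF vs FED, where 1.59% of all genes were.

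Of 21 genes of the heat shock list only 5 were in the table, and these were tested. All 5 were called higher in FMD vs FED, 4 of them higher in FMD vs IF and 0 called in IF vs FED. The rest of the heat shock response could not be seen. Of all genes, 35.5%, 4.67% and 10.3% were called higher in these comparisons. In scaled libraries 2, 1 and 0 were called higher and, in IF vs FED, Chordc1 was called lower at -0.64. Chordc1, the nearest neighbour of Hmox1, rose in FMD vs IF by 1.44 (SE 0.20, adjusted p = 0.00693). It was picked out above for its likeness, so this call is not separate evidence of it. Hspa8, Hsp90ab1 and Dnaja1, which encode abundant chaperones, rose in FMD vs IF by 1.0, 0.82 and 0.65 (adjusted p = 0.0290, 0.0193 and 0.0193), and all 3 calls were lost without any 1 IF library and after scaling. Their unscaled levels were higher in IF than in FED libraries, where Hmox1 was lower, at 0.57, 0.34 and 0.28 without a call. The median of all genes was 0.24 in that comparison, and in scaled libraries the 3 genes were at 0.29, 0.06 and 0.004.

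Of 30 HIF-1 target genes listed, 23 were in the table and 19 were tested. Of these 19, 5 were called higher in IF vs FED, 12 in FMD vs FED and 3 in FMD vs IF, with 0 lower. The shares of all genes called higher were 10.3%, 35.5% and 4.67%. Scaled libraries gave 2 higher and 1 lower, 5 higher and 0 lower, and 2 higher and 0 lower. Bnip3, a mitophagy receptor, rose by 1.82 in IF vs FED (adjusted p = 0.000156) and by 1.84 in FMD vs FED (adjusted p = 4.64e-05), and was at 0.02 (SE 0.17) in FMD vs IF, where Maff and Hmox1 differed. Aldoa, a glycolytic aldolase, and Adm, the vasodilator adrenomedullin, rose in FMD vs IF by 1.27 and 0.83 (adjusted p = 0.0129 and 0.0304). Both were also called in scaled libraries but not without any 1 IF library. Adm also lost its call without any 1 FED library. Mean Adm was 0.64 (FED), 0.76 (IF) and 2.18 (FMD) TPM, so only its FMD level took it past the 1 TPM filter. With a filter of 5 TPM, 1 of 14 genes of this list was called higher in FMD vs IF. For all 6 lists together, 13 of the 83 genes were called in FMD vs IF, and 2 when any 1 IF library was left out.

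**Figure D5:**
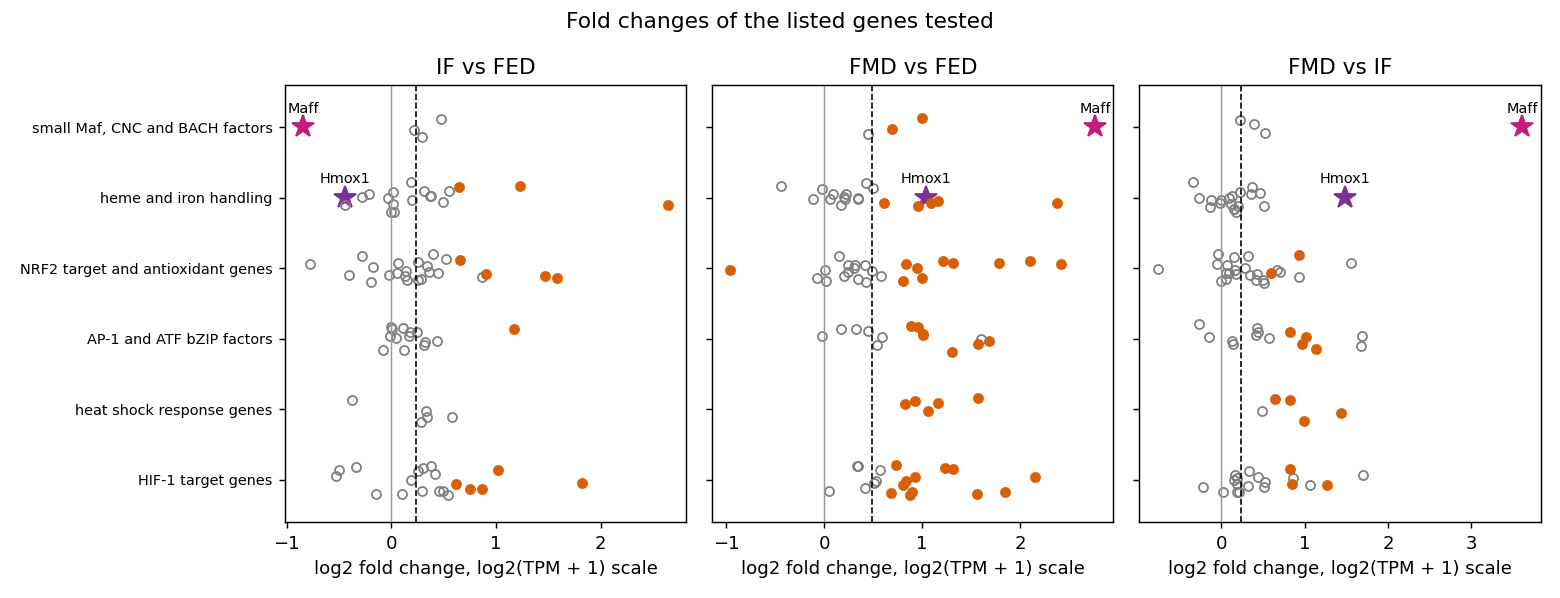
Log2 fold changes on the log2(TPM + 1) scale (horizontal axis) of the genes tested in 6 lists (rows), with 1 panel per comparison. Filled points were called, open points were not, stars are Maff and Hmox1, and the dashed line is the median of all 4665 genes; Maff is the highest point of FMD vs IF and the lowest of IF vs FED.

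Bulk liver RNA cannot tell fewer cells of a type from less RNA per cell, and most cell type markers were outside the table. Of 20 hepatocyte markers 1 was listed, Cyp2f2, at 1475 to 1729 TPM in fed mice, 932 to 1087 TPM in IF mice and 770 to 1143 TPM in FMD mice. Macrophages, which express Hmox1 strongly when they take up red blood cells, had 2 of 20 markers, Cd68 and Mpeg1, whose sum was 26.3 to 34.9 TPM in fed mice, 13.4 to 16.0 TPM in IF mice and 10.8 to 82.1 TPM in FMD mice. Cd68 was at 64.0 TPM in FMD replicate 1, the mouse highest in Maff and, before scaling, in Hmox1, and at 12.2 and 5.75 TPM in the other FMD mice. Mpeg1 was at 18.1 TPM in FMD replicate 1, within the fed range of 15.95 to 26.56 TPM, and at 12.1 and 5.08 TPM in the other FMD mice. In FMD replicate 4 both markers were below every fed library, while Maff and Hmox1 were above every fed library. The IF mice, lowest in Maff and Hmox1, were below every fed mouse in both markers. The neutrophil marker Camp was listed at 0 in all libraries. Summed stellate cell markers, 4 of 12, were 128 to 155 TPM in fed mice, 206 to 257 TPM in IF mice and 176 to 337 TPM in FMD mice, the endothelial marker Oit3 6.58 to 9.28, 6.35 to 8.02 and 8.85 to 17.2 TPM, and the cholangiocyte marker Krt19 at most 4.07 TPM. These are levels of few markers, and the part of these cell types in the levels of Maff and Hmox1 was not tested.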

How the data were processed

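Liver RNA of 9 mice (FED, IF and FMD, 3 each, grouped by the labels) was enriched with oligo-dT, made into strand-specific libraries and sequenced on DNBSEQ by the authors. The authors deposited TPM with 2 decimals, normalized by them for transcript length and library total. The submitters' processing notes name build mm39 and DESeq2, and the aligner, quantifier and annotation are not given in the sources used here. The table lists 5608 genes, whose TPM sum to 26.3% to 43.0% of the TPM total per library, so the depth behind them is unknown and counting error could not be given. Columns of no mapped sample numbered 0.

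The 4665 genes averaging at least 1 TPM were fitted as log2(TPM + 1) with limma 3.58.1 in R 4.3.3, with lmFit and eBayes with a trend, in 1 fit of all libraries. Calls needed an adjusted p (Benjamini-Hochberg) under 0.05 and a fold change over 1.5 in size, after the limits of the study's methods. Scaled libraries were divided by the median of their ratios to the geometric mean library. Tables came from pandas 2.3.3 and numpy 2.4.6 in python 3.11.15, figures from matplotlib 3.10.9. The fit was tested on simulated data. Motifs were searched on both strands of RefSeq windows of GRCm38.p6, whose coordinates are not those of mm39.

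Both genes and all lists were chosen with earlier results of these data known. Named are both genes, the measured small Maf, CNC and BACH genes, fixed heme and NRF2 genes, per list and comparison up to 4 called genes of lowest adjusted p (not all are described), the 5 nearest profiles of each gene and cell type markers. Alternatives covered the pseudocount (0.5 and 0.1), the filter (none and 5 TPM), a replicate block, scaling, the limits, no trend, 1 fit for each pair of groups and each library left out. Scaling with FMD replicate 1 left out was added after seeing the data.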

Additional observations from a re-analysis of the deposited data

How the results depend on the processing

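Neither Maff nor Hmox1 changed direction in any of the 18 alternatives, which for most of them was fixed in advance. As the groups did not overlap, a pseudocount or 1 library left out could not turn a sign. The filters, no trend and 1 fit per pair leave the estimates themselves unchanged. With a pseudocount of 0.1 the Maff log2 fold changes were 4.85 in FMD vs IF, 3.28 in FMD vs FED and -1.57 in IF vs FED, and with 0.5 the first was 4.15. Scaling gave 2.33 for Maff in FMD vs FED, and for Hmox1 1.22 in FMD vs IF, 0.51 in FMD vs FED and -0.71 in IF vs FED. With FMD replicate 1 also left out, Maff was at 3.20 and 2.18 in the comparisons of FMD with IF and FED, and Hmox1 at 1.19, 0.48 and -0.71 in the 3 comparisons. A replicate block put Hmox1 at 1.72 in FMD vs IF and 1.27 in FMD vs FED. As FMD replicate 4 is alone in its block, it carries no weight there. Leaving it out without a block gave 1.68 and 1.24, so the block is no test of pairing. The labels give the mice only a shared number, so whether the numbers mark a pairing or a batch cannot be told. Of 7 same-numbered pairs, 4 had correlated deviations over 0.1 (range 0.0035 to 0.177), and FMD replicate 4 had no partner. Pairs of unlike number ranged from -0.202 to 0.211. Genes called in IF vs FED numbered 553, and 333 after scaling, 364 at an adjusted p under 0.01 and 1112 with no limit on size. In FMD vs FED there were 1732, with 519 after scaling, 520 with FMD replicate 1 also left out and 3135 with no limit on size. FMD vs IF was the least stable count: 240 became 104 after scaling, 88 with FMD replicate 1 also left out, 24 with 1 fit per pair, 772 with the block, 19 at an adjusted p under 0.01, and 18 to 820 with 1 library left out (lowest without IF replicate 2, highest without FMD replicate 4). Listed genes called went from 41 to 18 and 20 in FMD vs FED under the 2 scaled fits, and from 13 to 7 and 5 in FMD vs IF, 2 with 1 fit per pair, 26 with the block and 2 to 27 with 1 library left out. Of 1986 results of 37 other named genes under alternatives, 1754 kept direction and side of the limits, 144 lost a call and 29 gained one. A further 59 that were called neither way changed sign, 40 of them under the 2 scaled fits, and 0 called values changed sign. The causes were not tested. The unknown depth limits Maff most, whose IF values are under 1 TPM.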

Other observations

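At several stress genes other than Maff and Hmox1, named after their values were seen, FMD replicate 1 stood apart. Ddit3, which encodes the endoplasmic reticulum stress factor CHOP, was at 121.0 TPM in this mouse and at 11.82 and 12.07 TPM in the other FMD mice, against 5.67 to 10.25 TPM in FED and 7.17 to 8.01 TPM in IF mice. Ddit4, an inhibitor of mTORC1, was at 75.45 TPM in FMD replicate 1, 21.42 TPM in replicate 2 and 4.72 TPM in replicate 4, the last within the fed range of 2.68 to 4.74 TPM. Before scaling, Maff and Hmox1 were also highest in replicate 1, but unlike Ddit4 they were above every fed library in replicate 4 as well. The pentose phosphate genes G6pdx and Pgd were at 9.09 and 71.39 TPM in FMD replicate 1 and at most 1.89 and 27.46 TPM in the other FMD mice.

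Of the 37 genes with the IF, FED, FMD order, Hspa5, the endoplasmic reticulum chaperone BiP, had a mean ± SD (n = 3 each) of 382 ± 7.12 TPM in fed mice, 287 ± 41.1 TPM after IF and 565 ± 256 TPM after FMD. Chac1, a glutathione-degrading enzyme, was at 2.5 ± 0.946, 0.963 ± 0.153 and 7.44 ± 3.79 TPM. Both genes were picked from the values and carry no test.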
